A study of Mus musculus with 15 samples.

Results

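The proteasome subunit genes of the mouse were taken as every gene whose symbol is Psma, Psmb, Psmc or Psmd followed by a number and that had at least 1 probe set annotated with that symbol alone. The rule found 39 genes among the 19296 genes measured in this way. Of these, 19 encode the core particle (8 Psma and 11 Psmb genes) and 20 the regulatory particle or its base chaperones (6 Psmc and 14 Psmd genes). They were covered by 45 probe sets, and for the 5 genes with several probe sets the brightest over all arrays was used. The choice used symbols and brightness, and no difference between groups.

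Expression was measured on 15 Affymetrix arrays, each hybridised with amplified RNA of bone marrow cells from wild-type C57Bl/6 mice, all labelled male. Haematopoietic stem cells (HSC, sorted as Lin-/cKit+/Sca1+/Flk2-/CD48-/CD150+) were taken from old mice of 22 to 30 months (3 arrays) and from young mice of 6 to 12 weeks (5 arrays). Granulocyte/macrophage progenitors (GMP, sorted as Lin-/cKit+/Sca1-/FcyR+/CD34+) were taken from old (3 arrays) and young (4 arrays) mice of the same ages. The mice received no treatment named in the labels. Whether the RNA on an array came from 1 mouse or several is not stated, and the p-values below reflect no more than the variation from array to array.

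The proteasome degrades proteins that have been tagged with ubiquitin. Its core particle is a barrel of stacked rings: outer rings of alpha subunits (Psma) control entry, and inner rings of beta subunits (Psmb) carry the proteolytic sites. The regulatory particle caps the barrel. Its base holds a ring of ATPases (Psmc) that unfold substrates, and its lid (Psmd) removes the ubiquitin chain. Blood cells can exchange the constitutive catalytic subunits Psmb5, Psmb6 and Psmb7 for the immunoproteasome subunits Psmb8, Psmb9 and Psmb10, which interferon induces and which favour peptides for MHC class I. The factor Nfe2l1 raises transcription of many subunit genes through antioxidant response elements (ARE) when proteasome activity is short. Protein synthesis in HSC is known to be low, and their protein quality control is a subject of ageing research.

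RefSeq promoters, the 250 bases before and 50 after a transcript start in build GRCm38.p6, were matched by Entrez gene ID for 32 of the 39 genes. Shown here are those of 5 genes on which the results below turn: Psmb3 and Psmd13, with the largest differences between HSC and GMP, Psmb5, called with age in every fit that left out 1 array, and the neighbouring immunoproteasome genes Psmb8 and Psmb9. Capitals mark the letters TGACNNNGC of the ARE in Psmb5 and the letters TTCNNNGAA of the interferon gamma activated site (GAS) in Psmb8, read on either strand. The windows lie at chr11:97703184-97703483 (plus strand, Psmb3), chr14:54617946-54618245 (minus strand, Psmb5), chr17:34197945-34198244 (plus strand, Psmb8), chr17:34187281-34187580 (minus strand, Psmb9) and chr7:140882144-140882443 (plus strand, Psmd13). Each runs 5′ to 3′.
Psmb3: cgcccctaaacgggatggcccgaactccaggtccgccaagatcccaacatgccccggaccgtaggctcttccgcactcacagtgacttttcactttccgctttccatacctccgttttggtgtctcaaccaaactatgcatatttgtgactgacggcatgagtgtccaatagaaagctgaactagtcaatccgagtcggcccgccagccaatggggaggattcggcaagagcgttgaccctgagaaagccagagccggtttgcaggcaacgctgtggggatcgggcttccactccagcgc
Psmb5: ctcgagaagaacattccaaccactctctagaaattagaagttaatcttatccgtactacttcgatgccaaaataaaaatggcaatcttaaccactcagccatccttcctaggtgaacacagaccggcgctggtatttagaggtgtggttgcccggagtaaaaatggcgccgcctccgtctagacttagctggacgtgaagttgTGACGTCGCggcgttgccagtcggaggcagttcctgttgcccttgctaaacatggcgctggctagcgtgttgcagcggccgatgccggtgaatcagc
Psmb8: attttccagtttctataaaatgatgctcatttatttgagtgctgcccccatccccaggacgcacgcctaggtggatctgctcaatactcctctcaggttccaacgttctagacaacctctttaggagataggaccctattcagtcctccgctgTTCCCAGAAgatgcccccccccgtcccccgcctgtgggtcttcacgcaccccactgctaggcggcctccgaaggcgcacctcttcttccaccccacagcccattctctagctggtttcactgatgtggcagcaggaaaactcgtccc
Psmb9: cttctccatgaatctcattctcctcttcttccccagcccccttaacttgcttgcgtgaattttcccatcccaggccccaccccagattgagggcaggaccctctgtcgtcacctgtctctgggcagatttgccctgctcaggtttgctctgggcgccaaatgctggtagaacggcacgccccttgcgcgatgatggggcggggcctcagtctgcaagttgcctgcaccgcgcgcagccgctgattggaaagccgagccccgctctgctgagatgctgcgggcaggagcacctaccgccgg
Psmd13: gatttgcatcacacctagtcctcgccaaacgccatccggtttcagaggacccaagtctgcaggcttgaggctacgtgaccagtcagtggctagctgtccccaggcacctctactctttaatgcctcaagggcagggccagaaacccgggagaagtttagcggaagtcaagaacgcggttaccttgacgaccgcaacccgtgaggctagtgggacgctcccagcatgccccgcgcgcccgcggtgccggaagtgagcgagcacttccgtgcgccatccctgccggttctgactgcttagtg

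The ARE letters occurred in 5 of the 32 member promoters (15.6%), against 3781 of 27025 genes with a RefSeq promoter. Psmb5 held them as TGACGTCGC from 47 to 39 bases before its start and Psmb6, also a catalytic subunit, as TGACGGAGC from 9 bases to 1 base before it; the others were Psmc6, Psmd9 and Psmd12. The letters CCAAT, bound by NF-Y, were found in 13 of 32 (40.6%, against 41.1% of genes), among them Psmb3, Psmb9 and Psmd14. The letters GCGCATGCG, bound by nuclear respiratory factor 1 (a different gene from Nfe2l1), were in Psma2 alone (3.12%, against 1.95%). The GAS letters, added to the search after the values were seen, were in Psmb8 and Psmd2 (6.25%, against 9.55%). No match of one motif overlapped a match of another, and each share in members lay near that of all genes. In the genome annotation, Psmb9, Tap1, Psmb8 and Tap2 are consecutive genes, and Psmb5 lies next to Psmb11. The members lie on 16 chromosomes.

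Most subunit genes were among the brightest on the arrays. When all genes were ranked by their mean log2 value and cut into 10 brightness classes of equal size, 32 members fell in class 10, the brightest, 2 in class 9, 4 in class 8 and only Psmb11 in class 5. The log2 values deposited by the submitters were made with RMA per their processing notes, and a difference of 1 is a 2-fold change. Their spread still differed between arrays, with interquartile ranges from 1.96 (old HSC replicate 2) to 2.69 (young HSC replicate 1). Psmb11, which belongs to the thymus proteasome, and Psma8, the testis form of Psma7, stood apart in what follows. Values of different probe sets are not compared as amounts.

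**Figure D1:**
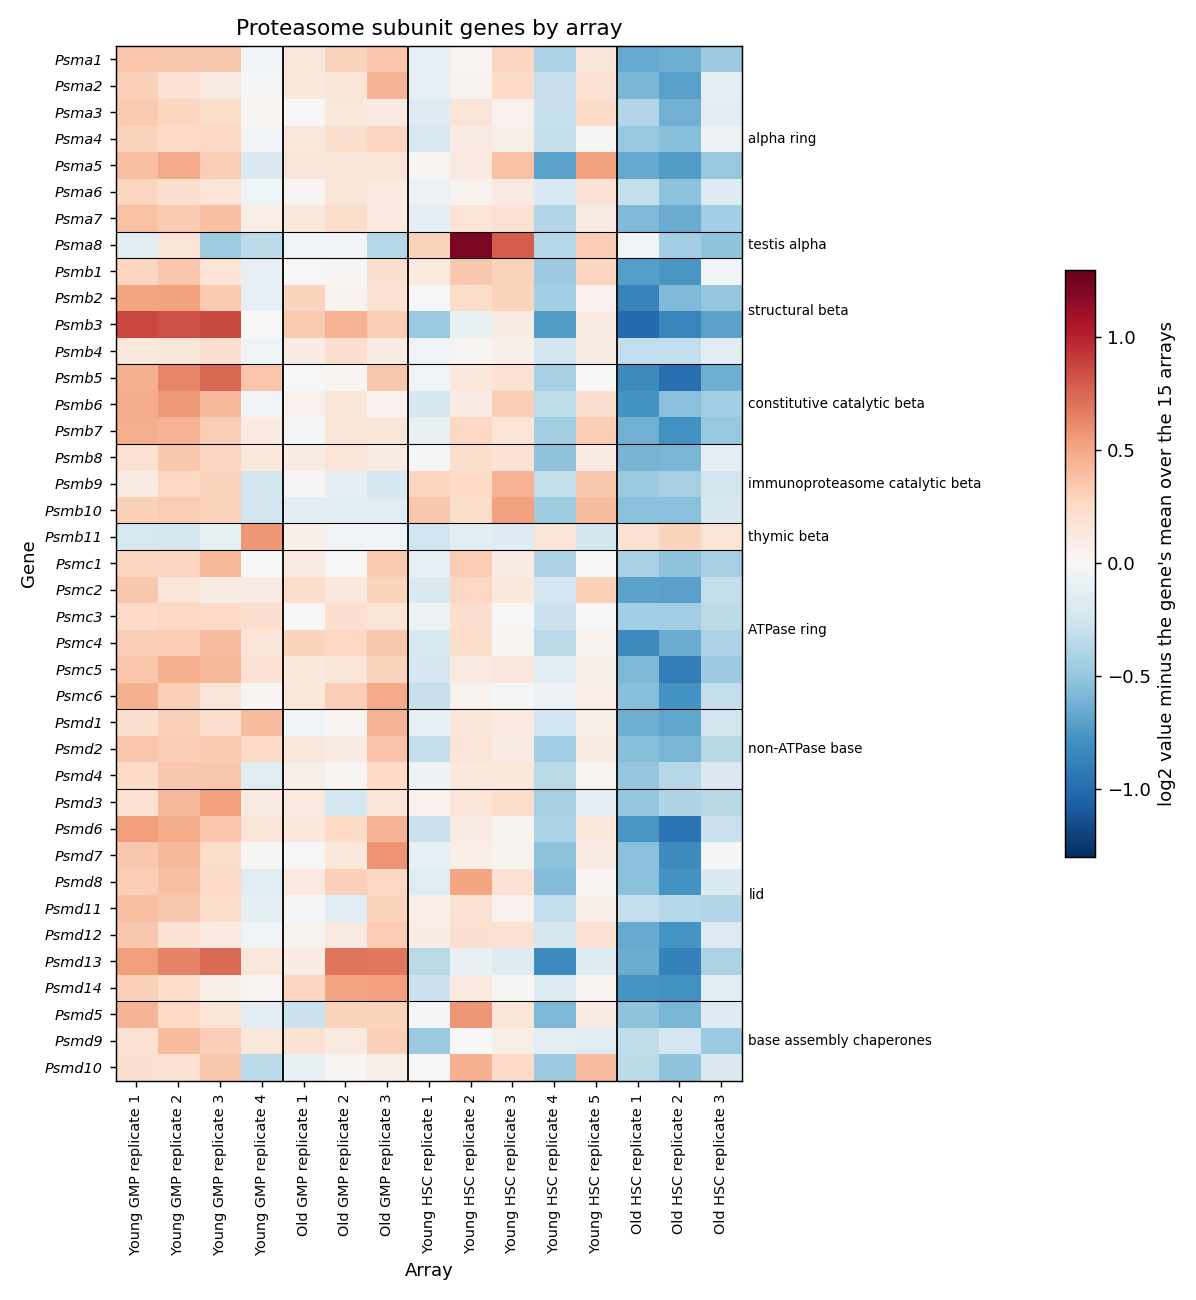
Heat map of the 39 subunit genes (rows, by role) on the 15 arrays (columns, by group); colour is a gene's log2 value minus its mean over the 15 arrays, blue lower and red higher. On each old HSC array 1 of the 39 genes lies above its own mean, against 31 to 35 on the old GMP arrays, and the young replicate 4 columns are paler or bluer than their groups.

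The arrays differed as a whole. The interquartile range of all values on an array was 1.96 to 2.33 log2 in old HSC, 2.21 to 2.69 in young HSC, 2.27 to 2.48 in old GMP and 2.13 to 2.60 in young GMP, and replicate 4 had the narrowest range in both young groups. Xist, which females transcribe from the inactive X chromosome, exceeded its highest value in old samples by over 1 log2 on 7 young arrays (4 HSC and 3 GMP) in spite of the male label. Old arrays read 5.46 to 5.67 log2 in HSC and 5.70 to 5.84 in GMP. In both cell types a difference with age therefore cannot be told apart from one that goes with Xist or sex. Of the HSC markers measured, 7 of 7 were higher in HSC than in GMP at both ages, and of the GMP markers 9 of 9 were lower in young HSC and 8 of 9 in old HSC. Proliferation genes such as Mki67 and Top2a, whose products belong to dividing cells, averaged 8.35 to 8.96 log2 on old HSC arrays, 8.87 to 9.25 on young HSC, 10.09 to 10.36 on old GMP and 10.03 to 10.21 on young GMP.

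The mean over the 39 genes was 9.88, 9.82 and 10.13 log2 on the 3 old HSC arrays. It was 10.33, 10.62, 10.60, 10.06 and 10.55 on young HSC, 10.51, 10.58 and 10.67 on old GMP, and 10.75, 10.77, 10.72 and 10.45 on young GMP. Old HSC lay below all GMP arrays, and young HSC replicate 4 lay within the old HSC range. The median member ranked above 94.1% to 95.5% of genes on old HSC arrays, 94.1% to 96.5% on young HSC, 96.4% to 96.5% on old GMP and 96.5% to 96.9% on young GMP. The core mean exceeded the regulatory mean by 0.64 ± 0.04 log2 (SD) in the 3 arrays of old HSC and by 0.69 ± 0.08 in the 5 of young HSC. In GMP this gap was 0.53 ± 0.12 over the 3 old and 0.59 ± 0.03 over the 4 young arrays. Since probe sets differ in brightness, only the change of this gap between groups is readable.

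The first comparison asked how subunit genes differ with age in stem cells. In old HSC 23 of 39 were lower than in young HSC and 0 were higher (limma, Benjamini-Hochberg adjusted p under 0.05 over all 19296 genes), while 9.22% of all genes were called lower and 2.25% higher. At an unadjusted p under 0.05 there were 37 members, 36 of them lower, beside 6054 of all 19296 genes and 1050 of the 1930 genes in the brightest class. The core particle had 13 of 19 lower and the regulatory particle 10 of 20. The log2 difference was negative for 38 of 39 genes (46.6% of all genes), with a median of -0.50 (core -0.59, regulatory -0.48) against 0.03 for all genes. In sorted bulk RNA, a lower level in each cell and fewer cells that express a gene cannot be told apart. Nor can age be told apart here from the difference in Xist between old and young arrays.

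Bright genes as a class were also lower in old HSC. Among the brightest class of genes 29.1% were called lower, with a median of -0.29, and 82.2% of genes in classes 8 to 10 had a negative difference. Members lay a median of 0.22 log2 below the median of genes of their own brightness class, and 36 of 39 lay below it. The 23 called members are therefore to be read against 29.1% as well as 9.22%.

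**Figure D2:**
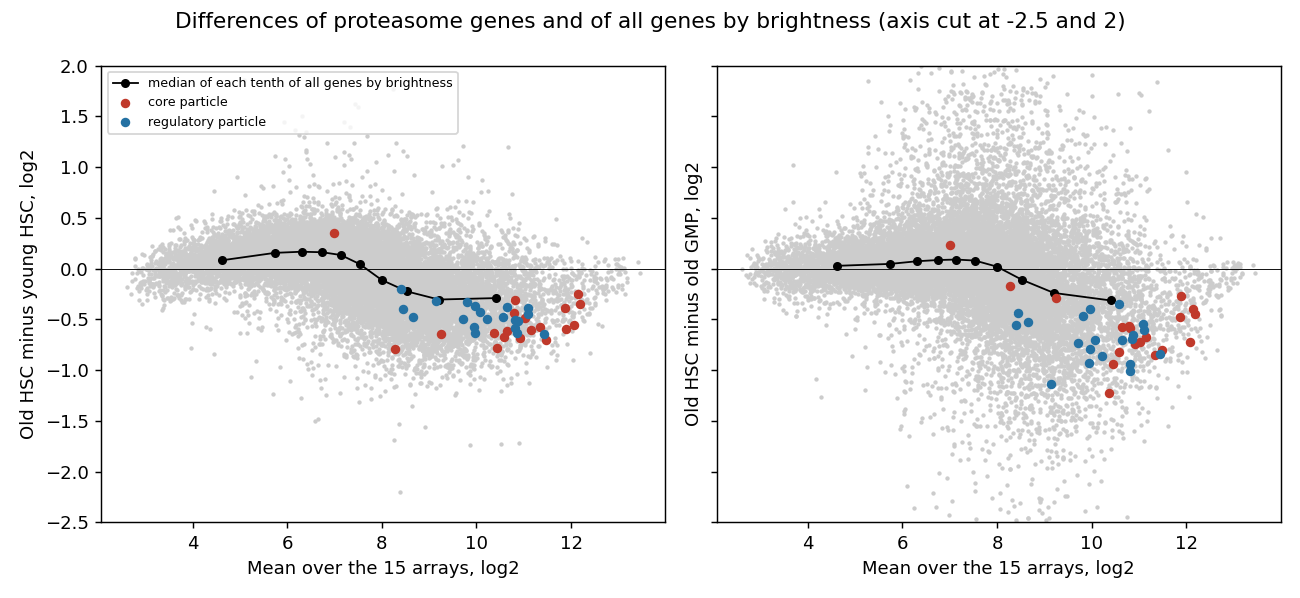
Log2 difference between old and young HSC (left) and between old HSC and old GMP (right) against mean log2 value for all genes (grey) and for the 39 members (coloured), with the median of each brightness class as a line and the vertical axis cut at -2.5 and 2. Members lie mostly under the line, which itself falls for bright genes to -0.29 with age and -0.31 between old HSC and old GMP.

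Of the alpha ring, 4 of 7 genes fell. Psma5, an alpha ring subunit, read 10.82, 10.75 and 10.98 log2 in old HSC and 11.51, 11.60, 11.87, 10.78 and 12.00 in young HSC. Only young HSC replicate 4 lay within the old range. The fall was 1.63-fold (log2 -0.70 ± 0.20 SE, limma adjusted p = 0.034), and its second probe set gave -0.59 without a call. Psma1 and Psma7, whose old and young arrays did not overlap, fell by 0.57 and 0.55 on the log2 scale, and Psma2 fell by 0.49. Psma3, Psma4 and Psma6 were not called, at -0.39, -0.31 and -0.35, although a dimmer probe set of Psma3 gave -0.59 and was called (limma adjusted p = 0.0335 over all probe sets).

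Psma8 read 8.24, 7.84 and 7.76 in old HSC and 8.59, 9.50, 9.07, 7.91 and 8.62 in young HSC, so that the groups overlapped through young replicate 4. Its difference of -0.79 ± 0.24 (adjusted p = 0.0435) was the largest drop of any member, and the call held in 1 of the 8 fits that left out an array.

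Of the structural beta subunits, which are not catalytic, 3 of 4 fell. Psmb2 read 9.72, 10.01 and 10.08 in old HSC and 10.59, 10.82, 10.87, 10.14 and 10.63 in young HSC. Every old array was below every young array, and the fall was 1.60-fold (-0.68 ± 0.17, limma adjusted p = 0.0171). Psmb1 and Psmb3 fell by 0.62 and 0.63 with overlapping arrays, and Psmb4 was not called at -0.25.

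All 3 constitutive catalytic subunits fell, each without overlap between old and young arrays. Psmb5, which carries the chymotrypsin-like site that bortezomib inhibits, read 9.61, 9.47 and 9.81 in old HSC against 10.40, 10.58, 10.63, 10.02 and 10.44 in young HSC. Its lowest young array, replicate 4, lay above its highest old array. It fell 1.72-fold (-0.78 ± 0.14, limma adjusted p = 0.00448), the smallest adjusted p of the family, and was called in all 8 fits without 1 HSC array. Psmb7, the trypsin-like subunit, read 10.29, 10.12 and 10.42 against 10.82, 11.19, 11.09, 10.46 and 11.25, a fall of 0.68 ± 0.15. Psmb6, the caspase-like subunit, read 10.36, 10.60 and 10.70 against 10.92, 11.24, 11.46, 10.81 and 11.35, a fall of 0.60 ± 0.16.

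Of the immunoproteasome subunits, 2 of 3 fell. Psmb10 read 8.70, 8.70 and 9.02 in old HSC and 9.59, 9.47, 9.78, 8.79 and 9.65 in young HSC, with only young replicate 4 in the old range. It was 1.57-fold lower (-0.65 ± 0.18, limma adjusted p = 0.0298). Psmb9 read 11.41, 11.46 and 11.66 against 12.17, 12.15, 12.35, 11.58 and 12.25, a fall of 0.59 ± 0.16. Psmb8 read 10.20, 10.21 and 10.67 against 10.77, 11.03, 10.99, 10.27 and 10.90, and at -0.43 ± 0.15 it was not called (adjusted p = 0.068). The thymic Psmb11 was the only member with a positive difference: it read 7.19, 7.28 and 7.16 in old HSC and 6.74, 6.85, 6.83, 7.16 and 6.75 in young HSC, and was not called (0.35 ± 0.15, adjusted p = 0.13).

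The ATPase ring was the only class of more than 3 genes in which every member was called. All 6 Psmc genes fell, each with its 3 old arrays below its 5 young arrays. Psmc5 read 10.86, 10.54 and 10.96 in old HSC and 11.22, 11.55, 11.58, 11.28 and 11.50 in young HSC, and fell 1.56-fold (-0.64 ± 0.12, limma adjusted p = 0.00561). It was called in 7 of 8 fits without 1 array. The other falls ran from 0.39 for Psmc3 to 0.63 for Psmc2, with Psmc4 at -0.57, Psmc6 at -0.49 and Psmc1 at -0.45 (adjusted p = 0.0498). Of the 8 fits without 1 array, Psmc2 and Psmc4 were called in 6, Psmc3 and Psmc6 in 3 and Psmc1 in 1, and after quantile normalization only Psmc5 of the ring was called.

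In the base without the ATPases 1 of 3 fell: the scaffold subunit Psmd1 read 10.24, 10.20 and 10.64 in old HSC and 10.77, 11.03, 11.00, 10.62 and 10.95 in young HSC (-0.52 ± 0.14). Psmd2, also a scaffold, and the ubiquitin receptor Psmd4 were not called, at -0.42 and -0.33. The other probe set of Psmd2, of nearly the same brightness, gave -0.51 and was called (limma adjusted p = 0.0322 over all probe sets). In the lid 3 of 8 fell. Psmd12 read 10.21, 10.10 and 10.69 against 10.96, 11.08, 11.06, 10.64 and 11.07, with old replicate 3 just above young replicate 4, and was 1.55-fold lower (-0.63 ± 0.14, limma adjusted p = 0.0127). Psmd6 and Psmd14, the deubiquitinase of the lid, fell by 0.59 and 0.51. The chaperones that assemble the base, Psmd5, Psmd9 and Psmd10, were not called, at -0.48, -0.20 and -0.48.

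Psmb11 alone had all old HSC arrays above all young ones, against 5.1% of all genes. Against 7.69% of all genes and 370 of the 1930 in the brightest class, 12 of 39 members had them below. Young HSC replicate 4, which had Xist at its highest, the Y-linked genes Eif2s3y, Kdm5d and Uty at their lowest mean (4.94 log2, against 7.12 to 8.80 on the other HSC arrays) and a narrow spread, was the young array nearest the old ones for most of them. Markers of T and NK cells averaged 7.01 to 7.10 log2 on old HSC arrays and 6.56 to 6.85 on young HSC, but went both ways. Of the 5, limma called 1 higher with age in HSC and 1 lower (2.25% and 9.22% of all genes), with differences from -0.61 to 1.15. On GMP arrays they averaged 7.32 to 7.46 (old) and 7.27 to 7.44 (young). The part of these markers in the age difference was not tested.

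**Figure D3:**
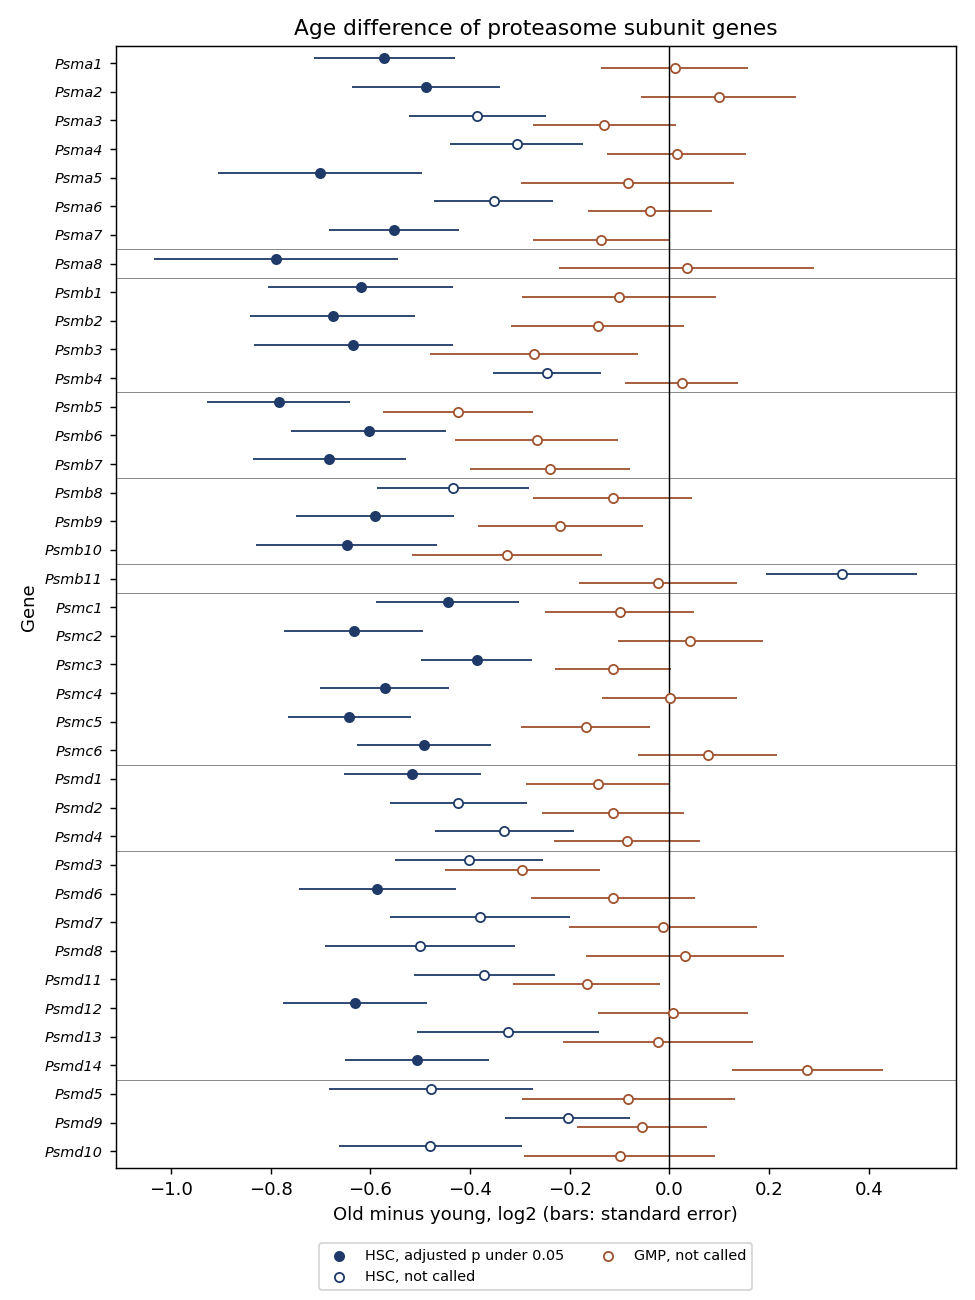
Old minus young log2 difference with its standard error for each member, in HSC and in GMP; filled points were called. The HSC points lie between -0.79 and 0.35, and the GMP points between -0.42 and 0.28 with none called.

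The number of members called with age rested on single arrays and on scaling. Leaving out old HSC replicate 1 gave 2 calls leaving out replicate 2 of that group 1, and leaving out its replicate 3 gave 28. The count was 17 without young HSC replicate 1, 9, 8 and 10 without young HSC replicate 2, 3 or 5, and 37 lower and 1 higher without young HSC replicate 4. After quantile normalization 4 were called (Psmb5, Psmb7, Psmc5 and Psmd12) with a median of -0.23, and the share of lower calls among all genes called went from 80.4% to 59.4%. With each array's interquartile range as a covariate limma called 0 members, 9 having an unadjusted p under 0.05 (median -0.23). Without the 7 young arrays of high Xist, which left 1 array in each young group, it called 0, with 14 at an unadjusted p under 0.05 and a median of -0.38.

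The second comparison asked the same of GMP. No member was called between old and young GMP (limma, 0 of 39 against 0% of all genes), and 1 member, Psmb5, had an unadjusted p under 0.05, as had 870 of all 19296 genes. The median was -0.10 and 28 of 39 were negative, against 51.9% of all genes and 58.9% of those in brightness classes 8 to 10. Psmb5 read 10.45, 10.46 and 10.80 in old GMP and 10.91, 11.07, 11.19 and 10.80 in young GMP. It had the largest drop at -0.42 ± 0.15 (limma adjusted p = 0.94) and was the only member with all old arrays below the young ones, against 3.72% of genes; 0 had them above, against 3.1%. Psmd14 lay at the other end, at 0.28 ± 0.15.

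Whether age acted differently in both cell types was tested as the difference of both age differences. It was negative for 38 of 39 members (47.6% of all genes and 80.7% of those in brightness classes 8 to 10) with a median of -0.37, but limma called 0 members, 11 having an unadjusted p under 0.05 (beside 2165 of all genes and 424 of the 1930 in the brightest class), and 18 of 19296 genes (0.0933%; 0.0674% lower and 0.0259% higher). Psmd14 had the smallest adjusted p of the family (-0.78 ± 0.21, adjusted p = 0.212): it was lower with age in HSC and its mean was higher with age in GMP. Without old HSC replicate 3 limma called 1 member. After quantile normalization the median was -0.14, and with the interquartile range as covariate -0.15.

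The third comparison set stem cells against progenitors in young mice. In young HSC 8 of 39 members were lower than in young GMP, a share near the 19.9% of the brightest class called lower. Of all genes 10.9% were called lower. Of the 32 members in the brightest class 6 were lower. Only 1 member was higher, while 13.6% of genes were. In either direction 24.6% of genes were called. The lower genes were 2 of 19 in the core particle and 6 of 20 in the regulatory particle. The difference was negative for 35 of 39 (58.7% of all genes and 52.7% of those in brightness classes 8 to 10), with a median of -0.26 against -0.05 for all genes. Deviations of same-numbered young HSC and GMP arrays had r from 0.16 to 0.52, against -0.41 to 0.25 for other pairs. With the replicate number as a block 16 members were lower and 1 higher.

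Psmb3, a structural beta subunit, read 9.89, 10.27, 10.46, 9.64 and 10.48 in young HSC and 11.23, 11.21, 11.22 and 10.37 in young GMP. Only GMP replicate 4 reached into the HSC range. It was 1.82-fold lower in HSC (-0.86 ± 0.18, limma adjusted p = 0.00135), and its other probe set gave -0.97. Psmb5 read 10.40, 10.58, 10.63, 10.02 and 10.44 against 10.91, 11.07, 11.19 and 10.80 without overlap (-0.58 ± 0.13, adjusted p = 0.00244). The other constitutive catalytic subunits were not called, with Psmb6 at -0.34 and Psmb7 at -0.30. The 3 immunoproteasome subunits ran from -0.25 to 0.10 and were not called. On the probe sets used no alpha ring gene was called, and Psma7 was lowest at -0.30. A dimmer probe set of Psma3 gave -0.44 and was called (limma adjusted p = 0.0200 over all probe sets).

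In the lid 2 of 8 were lower. Psmd13 read 8.80, 9.07, 8.98, 8.33 and 8.97 in young HSC and 9.70, 9.79, 9.89 and 9.29 in young GMP, and the groups did not overlap. Its 1.79-fold difference (-0.84 ± 0.17, limma adjusted p = 0.000717) had the smallest adjusted p of the members. Psmd6 was lower by 0.47 ± 0.14. Psmd13, Psmb3 and Psmb5 were called in all 9 fits without 1 young array.

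Among base genes, the ATPases Psmc5 and Psmc4, the scaffold Psmd2 and the chaperone Psmd9 were lower. Psmc5 read 11.22, 11.55, 11.58, 11.28 and 11.50 against 11.80, 11.90, 11.87 and 11.62, a difference of -0.37 ± 0.11. Psmd2 read 9.77, 10.24, 10.18, 9.64 and 10.18 against 10.44, 10.40, 10.42 and 10.33 (-0.40 ± 0.13), and its other probe set gave -0.43. Psmd9 read 7.92, 8.40, 8.49, 8.28 and 8.25 against 8.60, 8.82, 8.72 and 8.55 (-0.41 ± 0.11). None of these 3 overlapped between the groups. In all 8 members had every young HSC array below every young GMP array, against 9.51% of all genes and 314 of the 1930 in the brightest class.

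Psma8 was the gene that went the other way. It read 8.59, 9.50, 9.07, 7.91 and 8.62 in young HSC and 8.14, 8.46, 7.82 and 7.94 in young GMP, with young HSC replicate 4 in the GMP range. It was 1.57-fold higher in HSC (0.65 ± 0.22, limma adjusted p = 0.041). Of 9 fits without 1 array 2 kept this call; it was not made after quantile normalization or with the interquartile range as covariate.

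The count of lower members in young HSC was 5, 3 and 5 without young GMP replicate 1, 2 or 3, 13 without young GMP replicate 4 and 4 without young HSC replicate 1. With the interquartile range as covariate it was 24, and without the 7 young arrays of high Xist, with 1 array left in each young group, it was 1.

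The fourth comparison set stem cells against progenitors in old mice. In old HSC 30 of 39 members were lower than in old GMP and 0 were higher (limma), while 13% of all genes and 39.2% of the brightest class were called lower and 9.25% of all genes higher. At an unadjusted p under 0.05 there were 34 members, all lower, beside 5949 of all genes and 1129 of the 1930 in the brightest class. These were 14 of 19 in the core particle and 16 of 20 in the regulatory particle. The difference was negative for 38 of 39 (46% of all genes and 67.1% of those in brightness classes 8 to 10), with a median of -0.68 (core -0.58, regulatory -0.70) against 0.02 for all genes, and members lay a median of 0.39 below the genes of their brightness class. For 36 of 39 every old HSC array lay below every old GMP array, as for 18.4% of all genes and 928 of the 1930 in the brightest class. Psmb11 had them above, as 16.3% of all genes did. This comparison shares its arrays with the age comparisons, and whether it differed from the young contrast is the difference of age differences already given, in which no member was called.

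**Figure D4:**
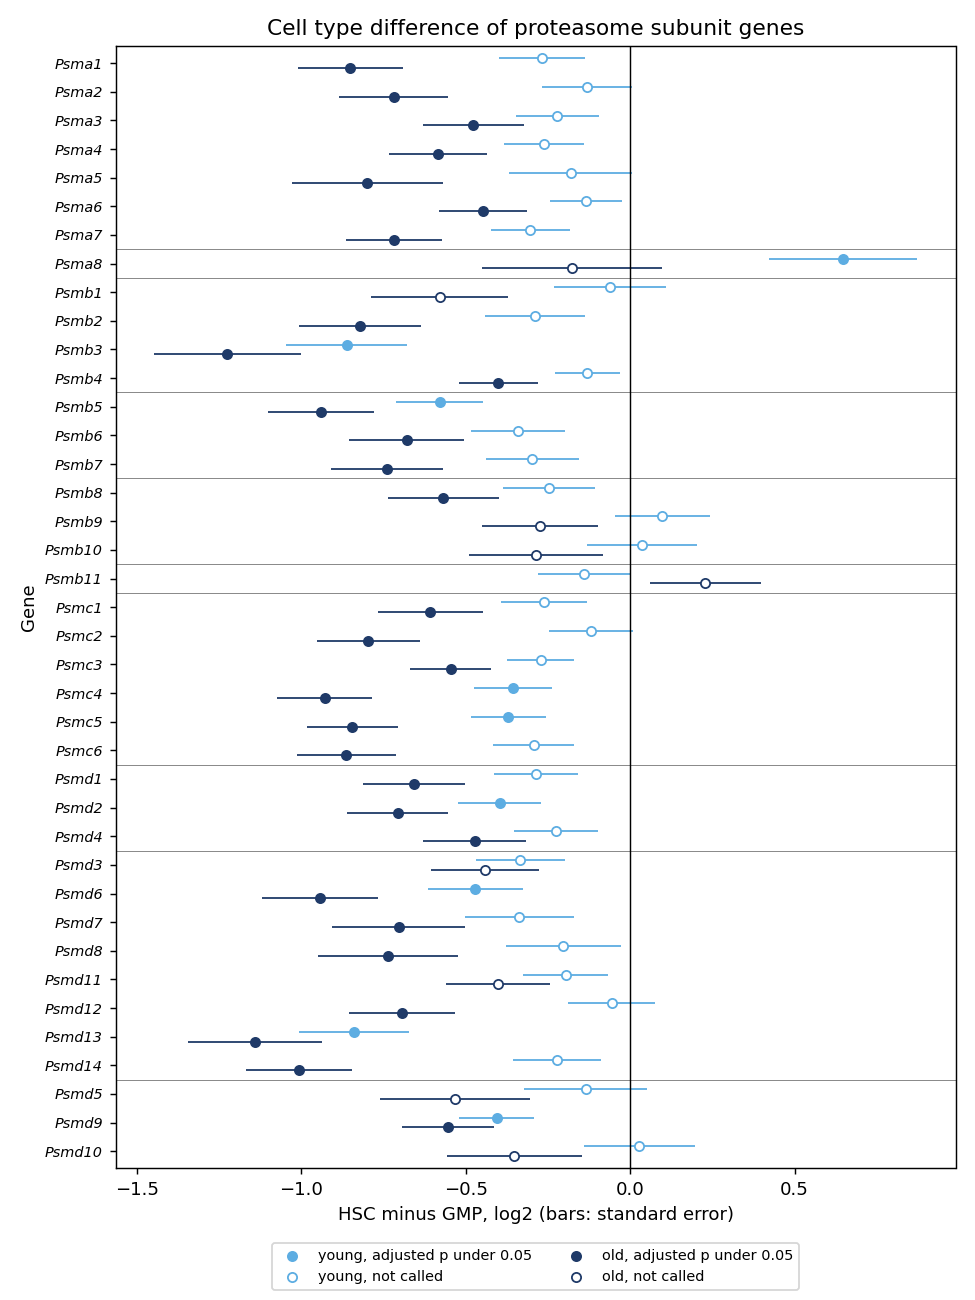
HSC minus GMP log2 difference with its standard error for each member in young and in old mice; filled points were called. The old points lie left of the young points for 38 of 39 members, and reach -1.22 for Psmb3.

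The alpha ring had 7 of 7 lower. Psma1 read 10.69, 10.71 and 10.86 in old HSC and 11.48, 11.63 and 11.70 in old GMP, 1.80-fold lower and without overlap (-0.85 ± 0.16, limma adjusted p = 0.000478). Psma6 had the smallest difference of the ring on the probe sets used, at -0.45. The dimmer probe sets of Psma3 gave -0.44 and -0.38 and that of Psma5 gave -0.66, and these were not called. The testis form Psma8 was not called, at -0.18 ± 0.27.

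Among structural beta subunits 3 of 4 were lower. Psmb3 read 9.36, 9.51 and 9.67 in old HSC and 10.70, 10.82 and 10.69 in old GMP, and its 2.34-fold difference (-1.22 ± 0.22, limma adjusted p = 0.00039) was the largest of the family. Its other probe set gave -1.48. Whether the brightest probe sets of Psmb3, Psma3, Psma5, Psmc1 and Psmd2 also take up signal of near-identical copies was not tested. Psmb2 and Psmb4 were lower by 0.82 and 0.40, and Psmb1, at -0.58, missed the threshold (adjusted p = 0.0521) although its groups did not overlap.

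All 3 constitutive catalytic subunits were lower. Psmb5 read 9.61, 9.47 and 9.81 in old HSC and 10.45, 10.46 and 10.80 in old GMP, 1.92-fold lower (-0.94 ± 0.16, limma adjusted p = 0.000209). Psmb6 and Psmb7 were lower by 0.68 and 0.74. Of the immunoproteasome subunits 1 of 3 was lower: Psmb8 read 10.20, 10.21 and 10.67 against 10.90, 10.96 and 10.91 (-0.57 ± 0.17), while Psmb9 and Psmb10 were at -0.27 and -0.29 and not called, although all their old HSC arrays lay below their old GMP arrays. Psmb11 was at 0.23, not called.

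All 6 ATPases were lower. Psmc4 read 9.13, 9.30 and 9.55 in old HSC and 10.24, 10.23 and 10.30 in old GMP, and its 1.90-fold difference had the smallest adjusted p of the members (-0.93 ± 0.14, limma adjusted p = 7.98e-05). The other 5 ranged from -0.55 for Psmc3 to -0.86 for Psmc6. The 3 base subunits without ATPase activity were lower too, with Psmd2 at 9.53, 9.48 and 9.72 against 10.23, 10.17 and 10.45 (-0.71 ± 0.15).

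In the lid 6 of 8 were lower. Psmd13 read 8.51, 8.27 and 8.74 in old HSC and 9.25, 9.85 and 9.84 in old GMP, a 2.20-fold difference (-1.14 ± 0.20, limma adjusted p = 0.000308). Psmd14 was 2.01-fold lower, at 10.04, 10.02 and 10.67 against 11.09, 11.32 and 11.34. Psmd3 and Psmd11 were not called, at -0.44 and -0.40, though their groups did not overlap. Of the base chaperones only Psmd9 was called, at 8.08, 8.18 and 7.93 against 8.60, 8.54 and 8.72 (-0.55 ± 0.14).

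Of the 30 members lower in old HSC, 21 were called in all 6 fits without 1 old array, among them all 3 constitutive catalytic subunits and 5 of the 6 ATPases. After quantile normalization 21 were called with a median of -0.39, with the interquartile range as covariate 27, with only the groups compared 32 and with the replicate block 35. Without 1 old array the count ran from 22 to 31. Proliferation genes differed in the same direction in both ages. In young HSC 10 of 10 were lower (median -1.05), against 10.9% of all genes and 19.9% of the brightest class. In old HSC 10 of 10 were lower (median -1.52), against 13% and 39.2%. With age 4 of the 10 were lower in HSC (Ccnb2, Cdk1, Rrm2 and Tyms, list median -0.48). Beside this stand 9.22% of all genes and 29.1% of the brightest class, whose median was -0.29. The part of the proliferation genes in the differences of the proteasome genes was not tested.

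The catalytic subunits allow a comparison within arrays, between each immunoproteasome subunit and its constitutive counterpart. The gap depends on the brightness of both probe sets, so only its change between groups is described and no test is given. The gap of Psmb8 over Psmb5 was 0.05 ± 0.11 log2 (SD over 4 arrays) in young GMP and 0.36 ± 0.21 (3 arrays) in old GMP. It was 0.38 ± 0.08 (5 arrays) in young HSC and 0.73 ± 0.14 (3 arrays) in old HSC. It was larger in HSC than in GMP at each age without overlap, and larger in old than in young HSC without overlap.

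The gap of Psmb9 over Psmb6 was 0.50 ± 0.11 in young GMP, 0.55 ± 0.14 in old GMP, 0.94 ± 0.18 in young HSC and 0.96 ± 0.09 in old HSC. It followed the cell type and hardly the age, with no HSC array below a GMP array. The gap of Psmb10 over Psmb7 was -1.84 ± 0.14, -1.92 ± 0.12, -1.51 ± 0.22 and -1.47 ± 0.10 in the same order, where a young HSC array at -1.72 overlapped a young GMP array at -1.69. Between HSC and GMP the gaps changed by 0.33 to 0.44 in young and 0.37 to 0.45 in old mice. The immunoproteasome subunits themselves differed by -0.25 to 0.10 in young HSC against young GMP. In old HSC against old GMP they differed by -0.57 to -0.27. The constitutive subunits differed by -0.58 to -0.30 in young and -0.94 to -0.68 in old mice.

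**Figure D5:**
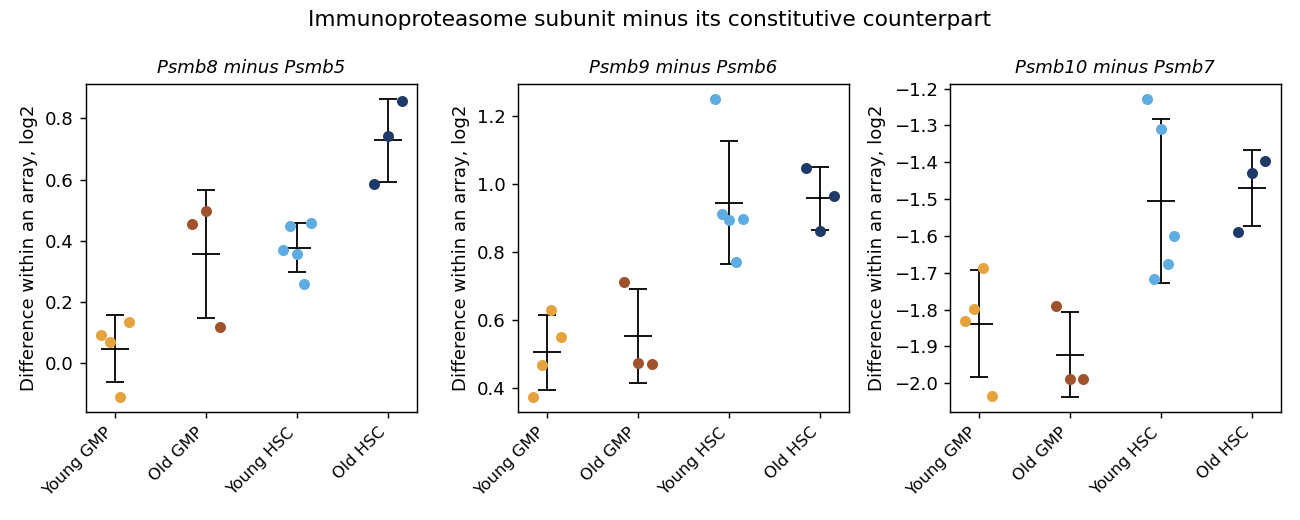
Log2 value of each immunoproteasome subunit minus its constitutive counterpart on every array (points), with the group mean and SD. For Psmb8 minus Psmb5 the group means run from 0.05 in young GMP to 0.73 in old HSC; for Psmb9 minus Psmb6 all HSC points lie above all GMP points.

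Interferon response genes were higher in HSC in 7 of 9 cases at each age, with medians of 0.70 in young and 0.60 in old mice; of all genes, 13.6% were called higher in young and 9.25% in old HSC. The list ran from 0.16 to 1.77 in young and from 0.29 to 1.74 in old mice. Irf1, named here for its role as an activator of immunoproteasome genes, was higher by 0.70 ± 0.11 log2 in young and 0.59 ± 0.13 in old HSC. The part of the interferon response genes in the values of the immunoproteasome genes was not tested. Of the genes of MHC class I processing, 1 of 9 was higher and 2 lower in young HSC, which is near the shares of all genes called higher (13.6%) and of the brightest class called lower (19.9%). Tap1, the peptide transporter gene between Psmb9 and Psmb8, was 1.40-fold higher in young HSC than in young GMP (0.48 ± 0.12) and fell 1.69-fold with age in HSC (-0.76 ± 0.13). The chaperone Calr was lower in HSC at both ages (-0.81 ± 0.11 and -1.02 ± 0.13).

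Partners of the subunits were taken from lists compiled with earlier results of these data known. Of 5 factors that assemble the core particle, 4 fell with age in HSC, with a list median of -0.65, while 9.22% of all genes and 29.1% of the brightest class were called lower. The counts of the other lists with age are to be read against the same shares. The 4 assembly factors that fell were Pomp (1.47-fold, -0.56 ± 0.13), Psmg1 (1.57-fold, -0.65 ± 0.19), Psmg2 (-1.07 ± 0.33) and Psmg4 (-0.97 ± 0.28). Of the 5, 0 had all old HSC arrays below all young ones, as 7.69% of all genes did. Psmg3 was not called with age (-0.19), but was 2.02-fold lower in young HSC than in young GMP (-1.02 ± 0.14, limma adjusted p = 1.57e-05) and lower in old HSC as well (-0.68 ± 0.17).

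Of the alternative caps and the inhibitor, 3 of 5 fell with age in HSC (9.22% of all genes and 29.1% of the brightest class): Psme1 and Psme2, which form the interferon-induced cap, by 0.42 and 0.65, and Psme3, the nuclear cap, by 0.69. Psme4 and the inhibitor Psmf1 were not called, at 0.20 and -0.29. Of 12 factors that bind the proteasome, 3 fell with age, a share near the 29.1% of the brightest class: Sem1, a small lid subunit whose symbol does not follow the Psm pattern (-0.55 ± 0.13), the deubiquitinase Usp14 (-0.62 ± 0.18) and the thioredoxin-like Txnl1 (-0.59 ± 0.14). Between old HSC and old GMP 4 of the 12 were lower, including Usp14 (2.03-fold) and the deubiquitinase Uchl5 (1.77-fold). The shares called lower were 13% of all genes and 39.2% of the brightest class. Higher were 2 of the 12, against 9.25% of all genes: Zfand5 (1.77-fold), an activator of the proteasome, and the shuttle factor Ubqln2 (1.38-fold).

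Of 6 regulators of subunit transcription measured, 1 fell with age in HSC (between the shares of all genes and of the brightest class), Ngly1 (-0.60 ± 0.17), which removes the sugar chains of Nfe2l1 before it acts, while Nfe2l1 itself was at -0.07 with age, 0.03 between young HSC and GMP and 0.06 between old HSC and GMP, and Nfe2l2 at -0.09, 0.03 and -0.08. Ngly1 was higher in young HSC than in young GMP (0.81 ± 0.16). Of 7 genes of the p97 segregase, which extracts ubiquitinated proteins for the proteasome, 2 fell with age, Ufd1 (1.57-fold) and Nsfl1c (1.54-fold), also near the share of the brightest class, and Vcp itself was not called (-0.30). Of the 5 members with ARE letters in their promoter, 5 were lower in old HSC than in old GMP with a median of -0.69, against 21 of 27 with a median of -0.66 among members without them.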

How the data were processed

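Expression was measured on 15 Affymetrix arrays in 4 groups: old HSC (3), young HSC (5), old GMP (3) and young GMP (4). Per the labels' protocols, RNA of double-sorted cells was isolated, amplified by whole-transcriptome amplification and labelled with biotin. The deposited values are log2 expression per probe set, made with RMA, affy and limma per the submitters' processing notes; versions are not given in the sources used here, and values were used as deposited. The number of arrays limits the precision.

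The table held 23309 probe sets, of which 20728 had 1 gene symbol, 1174 several and 1407 none listed. The brightest probe set per gene over all arrays gave 19296 genes. A probe set can share signal with near-identical copies, which the table does not separate. Means per group were fitted on all 15 arrays with limma 3.58.1 (R 4.3.3, eBayes defaults, 11 residual degrees of freedom), with Benjamini-Hochberg adjustment over all 19296 genes and a threshold of 0.05; the fit was tested on simulated data. Values for every array of the groups compared were given for the called member of largest difference in each class and comparison. With age in HSC they were also given for the 6 catalytic beta subunits, and with age in GMP for Psmb5. The arrays of Psmb11 with age and of Psmd14 in old HSC and GMP were added after their values were seen. Members and lists were chosen with earlier results of these data known. Same-numbered young HSC and GMP arrays had positively correlated deviations from their group means in all 4 pairs (r from 0.16 to 0.52, other pairs -0.41 to 0.25). Replicates 2 and 3, at 0.23 and 0.16, lay within the range of the other pairs. The numbers were taken to pair the arrays in the replicate block, on this limited ground. No 2 arrays were copies (highest r 0.995). Alternatives covered normalization, array spread, probe set choice, a brightness filter, moderation, the groups fitted, a replicate block and leaving out arrays.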

Additional observations from a re-analysis of the deposited data

Results flagged for a closer look

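In 13 of 90 groups of 4 or 5 values tested, the highest or lowest array stood apart from the rest by Dixon's 95% limit; chance flags about 1 in 20 groups. Young GMP replicate 4 accounted for 8 of them. It was lowest of its group in Psma1 (11.298 log2), Psma4 (10.7726), Psma7 (12.1556), Psmb3 (10.3696), Psmb10 (9.0074), the mean of all members (10.4527) and the mean of regulatory members (10.1795), and highest in Psmb11 (7.5543). Young HSC replicate 4 accounted for the other 5. It was lowest in Psmb1 (10.1701), Psmb9 (11.5814), Psmd11 (9.6513) and Psmd12 (10.6411), and highest in Psmb11 (7.1579). Both arrays carry the same replicate number, high Xist and the narrowest interquartile range of their groups, and on both the Y-linked genes Eif2s3y, Kdm5d and Uty averaged lower (5.20 log2 in GMP and 4.94 in HSC) than on the other 13 arrays (7.12 to 8.80). The part of these in the values was not tested.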

How the results depend on the processing

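No value changed direction past the threshold. In old against young HSC, quantile normalization called 1310 genes in either direction and 4 members lower (median -0.23), and the interquartile range as covariate 105 genes and 0 members (limma, 9 at an unadjusted p under 0.05, median -0.23). Fitting only the groups compared called 871 genes and 8 members. The replicate block called 6280 genes in either direction, with 37 members lower and 1 higher, leaving out replicate 4 of both young groups 6183 genes, with 37 members lower and 1 higher, and leaving out the 7 young arrays of high Xist 22 genes and 0 members (limma, 14 at an unadjusted p under 0.05). The old groups have no replicate 4 or 5, so the block set young replicates 4 and 5 against no old array of their number. Its counts with age, in HSC and in GMP, are therefore no separate check beside leaving out replicate 4. Without 1 array at a time, genes called ran from 345 to 5312 and members lower from 1 to 37.

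In old against young GMP the replicate block called 232 genes and 2 members lower, leaving out both young replicates 4 called 188 genes, and leaving out the arrays of high Xist 3. Without 1 array, genes called ran from 0 to 12. In the difference of age differences, genes called were 5 with the interquartile range as covariate, 41 with the replicate block, 145 without both young replicates 4, 0 without the arrays of high Xist and 1 to 192 without 1 array, with 0 to 1 members called. Its median was -0.14 after quantile normalization and -0.15 with the covariate.

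In young HSC against young GMP, where the numbers were taken to pair the arrays, the replicate block called 16 members lower and the block within age 16. The covariate called 24 lower, and leaving out the arrays of high Xist called 1770 genes and 1 member lower (median -0.46). The 1 higher member, Psma8, was at 0 higher calls under quantile normalization, the covariate, trend and robust moderation, only the groups compared and without high Xist. Without 1 array, members lower ran from 3 to 13 and higher from 0 to 1. In old HSC against old GMP the median was -0.39 after quantile normalization, and members lower ran from 21 with that setting to 35 with the replicate block. In old HSC against old GMP, same-numbered arrays had r from 0.05 to 0.42 in 3 pairs, and other pairs -0.40 to 0.23. Between old and young arrays of the same number, r ran from -0.24 to 0.15 in HSC and from -0.23 to -0.0067 in GMP. Other pairs of old and young arrays ran from -0.43 to 0.39 in HSC and from -0.38 to 0.38 in GMP. The numbers thus gave no ground for a block across ages. The main fit used no pairing. The cause of these changes was not tested. The block within age was chosen after seeing the data.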
